A study of Homo sapiens with 6 samples.

Results

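The microRNAs of the erythroid locus of miR-144, miR-451a and miR-4732 on chromosome 17, together with miR-486, were followed in K562 cells that over-expressed RUNX1. The 8 mature arms, hsa-miR-451a, hsa-miR-451b, hsa-miR-144-5p, hsa-miR-144-3p, hsa-miR-4732-5p, hsa-miR-4732-3p, hsa-miR-486-5p and hsa-miR-486-3p, were chosen by name, with earlier results of these data known, out of 2596 microRNA entries and 28846 small RNA entries in all. K562 is an established human erythroleukemia line that can be driven towards red cells or megakaryocytes. The control cells carried the empty lentiviral vector SIEW, which expresses GFP alone, and the RUNX1 cells carried the same vector with human RUNX1 and GFP. There were 3 biological replicates per group, all harvested after 10 days in culture. The labels describe no sorting of the transduced cells and no untransduced K562 cells, so every comparison is between 2 transduced populations. Small RNA sequencing does not read the RUNX1 messenger RNA, and the over-expression itself could not be checked in these counts.

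A microRNA is cut from a hairpin precursor, and its mature strand is named 5p or 3p after the side of the hairpin it comes from. Usually 1 arm is loaded into an Argonaute protein and the other is degraded, so the arms of a hairpin differ in level although they are made in equal number. miR-144 and miR-451a come from a shared primary transcript that the erythroid factor GATA1 activates, and miR-451a is among the most abundant microRNAs of red cells. The miR-451a hairpin is too short for Dicer and is cut by AGO2, which leaves a single mature strand. miR-486-5p, made from an intron of the ankyrin gene ANK1, is another microRNA that accumulates in red cells. RUNX1 is a transcription factor of megakaryocyte and stem cell development.

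The mature strands of miR-144 and miR-4732 were read from the RefSeq table (GRCh38.p14), which held 4 of the 8 members. They are shown because the results turn on the split between the miR-144 arms. Each is written from the 5′ end, and capitals mark the seed, bases 2 to 8, with which a microRNA pairs to its targets.
hsa-miR-144-5p: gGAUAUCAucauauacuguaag
hsa-miR-144-3p: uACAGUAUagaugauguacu
hsa-miR-4732-5p: uGUAGAGCagggagcaggaagcu
hsa-miR-4732-3p: gCCCUGACcuguccuguucug
The 2 arms of MIR144 carry different seeds and would pair with different target sites. In the hairpin MIR144 (chr17:28861533-28861618, minus strand, 86 bases), capitals mark the 5p arm at bases 15 to 36 and the 3p arm at bases 52 to 71.
MIR144: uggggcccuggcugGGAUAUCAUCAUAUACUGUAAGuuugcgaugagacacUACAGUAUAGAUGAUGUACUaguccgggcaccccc
No other human microRNA in the table had the same bases 2 to 8 as any of the 4 strands. With bases 2 to 7, a looser match tried after the values were seen, the only partner of miR-144-3p was hsa-miR-101-3p, printed here with those bases in capitals.
hsa-miR-101-3p: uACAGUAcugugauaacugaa

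In GENCODE 29 (GRCh38) the locus lies within an exon of the long noncoding RNA AC024267.1 (chr17:28861072-28861966, minus strand). In the direction of transcription, MIR4732 (chr17:28861655-28861730) comes first, MIR144 follows after 36 bases, and MIR451A (chr17:28861369-28861440) follows after another 92 bases. All 3 hairpins are on the minus strand. MIR451B (chr17:28861371-28861438) lies within MIR451A on the opposite strand. The submitters' processing notes name hg19, with no role given, so these positions describe the genes and were not used for counting. The miR-486 arms come from MIR486-1 and MIR486-2, which overlap on opposite strands in an intron of ANK1 on chromosome 8. How reads shared by such copies were assigned is not given in the sources used here, and the counts of the miR-486 arms are uncertain to that extent.

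**Figure D1:**
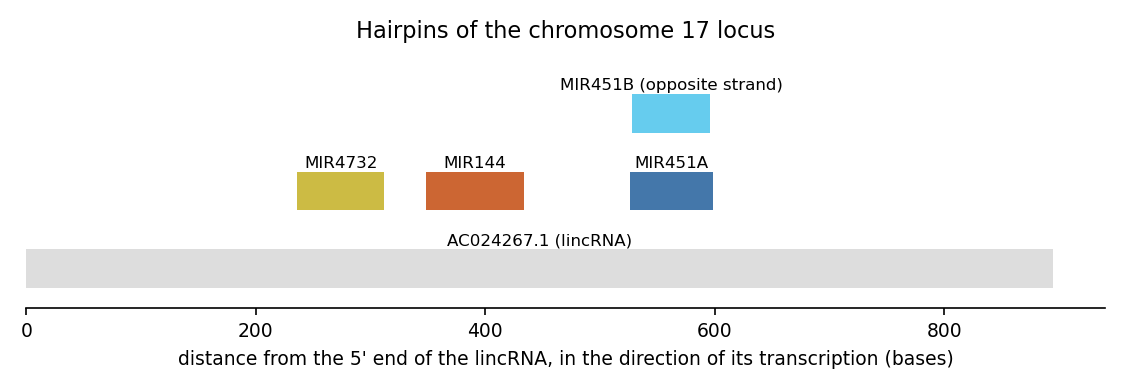
Hairpins of the chromosome 17 locus drawn to scale along the lincRNA AC024267.1, with the distance from its 5′ end in bases on the horizontal axis. MIR4732, MIR144 and MIR451A follow each other on the same strand, and MIR451B lies opposite MIR451A.

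The 6 samples held 1618248 to 6193319 counts in the control samples and 7918551 to 15245007 in RUNX1 libraries, so control replicate 1 was the shallowest. Levels are given as CPM, that is counts scaled to a common library size by TMM, a method that takes most small RNAs as unaltered. Each read covers a whole mature arm, so levels were compared between arms without division by length. Whether different strands enter a library equally well was not tested, so levels of different strands compare counts and not molecules. A small RNA was called altered with a Benjamini-Hochberg adjusted p under 0.05 in edgeR's quasi-likelihood test and a change of 0.5 or more on the log2 scale. By this rule 54.6% of the 947 tested small RNAs were altered, 26.7% upwards and 27.9% downwards. Some predicted entries had the same counts in all 6 samples as an annotated microRNA, so these shares count some RNAs more than once. Against that background, 4 of the 8 members were altered, 1 upwards and 3 downwards, 1 was tested and not altered, and 3 had too few counts to be tested. Of the 5 members that were tested, 4 were thus altered. The total counts differ between the groups, and the library names of the groups also carry different letters; if these letters mark separate preparations, preparation and RUNX1 cannot be told apart.

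miR-451a, the strand whose loss makes red cells sensitive to oxidative stress, was the most abundant member in every sample and fell with RUNX1. The control replicates 1, 2 and 3 had 5950, 21799 and 23985 counts, or 2844, 2704 and 3157 CPM. The RUNX1 replicates had 15121, 10606 and 12764 counts, or 1311, 1696 and 1862 CPM. All RUNX1 samples lay below all control samples, and the log2 fold change was -0.84 (standard error, SE, 0.154, adjusted p = 0.00132, edgeR), which is 0.559 of the control level. Ordered by counts, miR-451a stood at place 30 or 31 among the microRNA entries in the control samples and at places 43 to 49 in the RUNX1 samples. In these bulk populations, fewer cells that make a microRNA and less of it per cell cannot be told apart.

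The 2 arms of miR-144 went in opposite directions. miR-144-5p, the more abundant arm, had 1039, 925 and 989 CPM in the control samples and 502, 576 and 903 CPM in the RUNX1 samples. RUNX1 replicate 3 lay just under the lowest control sample and far from the other 2 RUNX1 replicates. The log2 fold change was -0.58 (SE 0.209, adjusted p = 0.0394, edgeR). The call was lost without any 1 of the other 5 libraries, with log2 fold changes of -0.62 to -0.40. Leaving out a library also lowers the power of the test, and the reason for this loss was not tested. Without RUNX1 replicate 3, which removes a library as well, the log2 fold change was -0.78 (SE 0.102, adjusted p = 8.02e-08, edgeR).

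miR-144-3p, the arm with the well-studied targets such as the oxidative stress regulator NFE2L2, had 136, 112 and 111 CPM in the control samples and 225, 249 and 252 CPM in the RUNX1 samples. Both groups were tight, and they did not overlap. The log2 fold change was 1.02 (SE 0.138, adjusted p = 0.000221, edgeR), which is 2.03 times the control level. By q-RT-PCR, the paper reports a lower level of this mature microRNA with RUNX1, opposite in direction to its own sequencing. The primer assay it lists is for this same arm. The paper also reports less of the shared primary transcript of miR-144 and miR-451 with RUNX1, by q-RT-PCR. For mature miR-451 its q-RT-PCR and its sequencing both showed a fall. The cause of the disagreement for miR-144 was not tested, and the rise rests on the sequencing counts alone. Scaled by library size alone, the log2 fold change was 0.32 (SE 0.158, adjusted p = 0.0979), and the arm was no longer called, while the median over all small RNAs was then -0.76. As a share of all microRNA counts, miR-144-3p took 0.0215%, 0.0180% and 0.0166% in the control samples and 0.0186%, 0.0201% and 0.0244% in the RUNX1 samples, and these ranges overlapped. miR-101-3p, which shares bases 2 to 7 with it, had a mean of 75.9 CPM in the control samples and 80.6 CPM in the RUNX1 samples and was not called (log2 fold change 0.10, SE 0.182, adjusted p = 0.672, edgeR).

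miR-486-5p, which targets the transcription factor FOXO1, was the third most abundant member. It had 1672, 5531 and 6118 counts in the control samples and 3384, 2141 and 4647 in the RUNX1 samples. In CPM these were 799, 686 and 805 in the control samples and 293, 342 and 678 in the RUNX1 samples. All RUNX1 samples were below the controls, but RUNX1 replicate 3 missed the lowest control by only a few CPM while the other 2 were far below. The log2 fold change was -0.80 (SE 0.283, adjusted p = 0.0355, edgeR). As for miR-144-5p, the call was lost when any 1 of the other 5 libraries was left out. Without RUNX1 replicate 3 the log2 fold change was -1.18 (SE 0.108, adjusted p = 8.79e-11, edgeR).

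miR-486-3p, the minor arm, had 55.0, 49.1 and 43.0 CPM in the control samples and 53.3, 47.7 and 87.7 CPM in the RUNX1 samples. RUNX1 replicates 1 and 2 lay inside the control range and replicate 3 above it. The log2 fold change of 0.37 (SE 0.233, adjusted p = 0.202, edgeR) did not pass the test, and with library size alone it was -0.31.

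**Figure D2:**
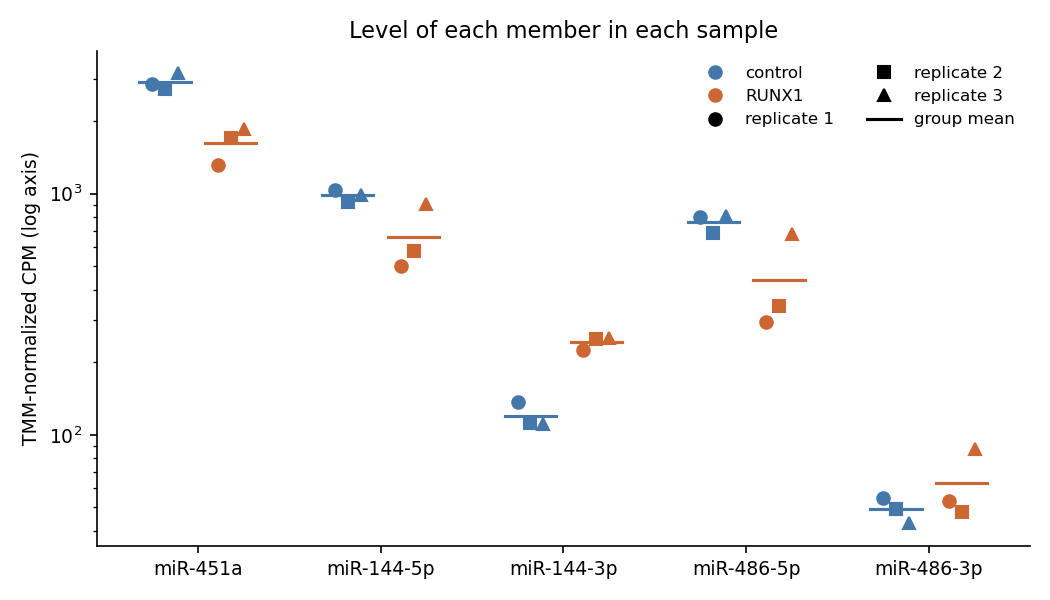
TMM-normalized CPM (log axis) of the 5 tested members in each of the 3 control and 3 RUNX1 samples, with symbols for the replicate numbers and bars for group means. The RUNX1 samples lie below the controls for miR-451a, miR-144-5p and miR-486-5p and above them for miR-144-3p, RUNX1 replicate 3 is near the controls for miR-144-5p and miR-486-5p, and the groups overlap for miR-486-3p.

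The remaining arms were at the limit of detection. miR-4732-5p had 1, 0 and 2 counts in the control samples and 0, 1 and 1 in the RUNX1 samples. miR-4732-3p was seen with 3 counts in control replicate 3 and 2 in RUNX1 replicate 3, and was at 0 in the other 4 samples. miR-451b was seen once, in control replicate 2. For a sample at 0, 3 counts set the upper limit, from 0.197 CPM in the deepest to 1.85 CPM in the shallowest library before TMM scaling, which covers counting error only. At this depth a fall or a small rise of these 3 arms was not detectable. A large rise was not seen. miR-4732 shares its transcript with miR-144, yet over the 6 samples its arms together had 10 counts and those of miR-144 had 40643.

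The order of the members was the same in both groups, with miR-451a followed by miR-144-5p, miR-486-5p, miR-144-3p and miR-486-3p. In control, the ranges of all neighbours were separate, and miR-451a was on average 2.95 times as abundant as miR-144-5p. In RUNX1 samples this ratio was 2.46. The ranges of miR-144-5p and miR-486-5p overlapped there, although miR-144-5p was the higher of the 2 within each of the 3 samples. miR-486-5p had 6.38 times the level of miR-144-3p in the control samples and 1.81 times in the RUNX1 samples.

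The ratio of 2 arms within a sample does not depend on how libraries are scaled. Expressed on the log2 scale, the count of the miR-144-3p arm over that of miR-144-5p was -2.93, -3.05 and -3.16 in the control samples and -1.16, -1.21 and -1.84 in the RUNX1 samples. The groups did not overlap, and the ratio was 3.12 times higher with RUNX1, a log2 difference of 1.64 (SE 0.230). In percent, the 3p arm made up 11.6% (95% Wilson interval 10.4 to 12.9), 10.8% (10.1 to 11.5) and 10.1% (9.44 to 10.7) of the miR-144 counts in control. It made up 31.0% (30.0 to 32.0), 30.2% (29.0 to 31.5) and 21.8% (20.9 to 22.7) in the RUNX1 samples. These intervals cover counting error only.

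The arms of miR-486 shifted the same way. The log2 ratio of miR-486-3p to miR-486-5p was -3.86, -3.80 and -4.22 in the control samples and -2.46, -2.84 and -2.95 in the RUNX1 samples. The ratio was 2.31 times higher with RUNX1, a log2 difference of 1.21 (SE 0.199), again without overlap. miR-486-3p made up 6.06% ± 0.866 of the miR-486 counts in the control samples and 13.0% ± 2.08 in the RUNX1 samples (SD, n = 3 per group). RUNX1 replicate 3, which stood apart for the levels of the 5p arms, had the smallest ratio of the RUNX1 samples for both hairpins, with a wide gap to the others for miR-144 and a narrow one for miR-486.

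Within the chromosome 17 transcript, miR-451a was compared with each arm of miR-144. The log2 ratio of miR-451a to miR-144-5p was 1.56 ± 0.111 in the control samples and 1.33 ± 0.262 in the RUNX1 samples (SD, n = 3 per group), and the groups overlapped. For miR-451a to miR-144-3p it was 4.60 ± 0.226 in the control samples and 2.73 ± 0.175 in the RUNX1 samples (SD, n = 3 per group), with no overlap. The log2 ratio of miR-451a to miR-486-5p, from the other locus, was 1.93 ± 0.0831 in the control samples and 1.97 ± 0.454 in the RUNX1 samples (SD, n = 3 per group). miR-451a took 72.4% ± 1.70 of the counts of the locus in the control samples and 64.4% ± 2.78 in the RUNX1 samples (SD, n = 3 per group). Of the 5 ratios, those of miR-144-3p over miR-144-5p, miR-486-3p to miR-486-5p and miR-451a to miR-144-3p had p = 0.1 in the two-sided exact permutation test, the smallest that 3 against 3 allow, with a Benjamini-Hochberg adjusted p of 0.167. For the ratios of miR-451a to miR-144-5p and to miR-486-5p, the exact permutation p was 0.3 and 1, with adjusted values of 0.375 and 1. The design cannot reach 0.05 for a single ratio, and the 3 ratios with a miR-4732 arm were left out for their low counts.

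The change of the arm ratio was set against hairpins of which both arms passed the count filter, a comparison added after the values of miR-144 were seen. Only arms whose names differ solely in 3p and 5p were paired. Hairpins with a copy number in a single arm name, such as that of miR-92a-1-5p, were left out. In 79 of these 144 hairpins (54.9%) the log2 ratio of 3p to 5p did not overlap between the groups, so separate groups alone are not particular to miR-144 and miR-486. The median difference over the hairpins was -0.01 on the log2 scale, with quartiles of -0.70 and 0.56, and 37 of the 79 moved towards the 3p arm. The difference of miR-144 was the 10th highest and that of miR-486 the 20th highest of the 144. Counted as the minor arm over the major arm, they were the 6th and the 10th highest, over a median of -0.24. A log2 difference of 1 or more towards the 3p arm was seen in 23 hairpins, and 19 moved that far towards the 5p arm. In 7 of the 144 hairpins, miR-144 among them, 1 arm was called up and the other down.

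**Figure D3:**
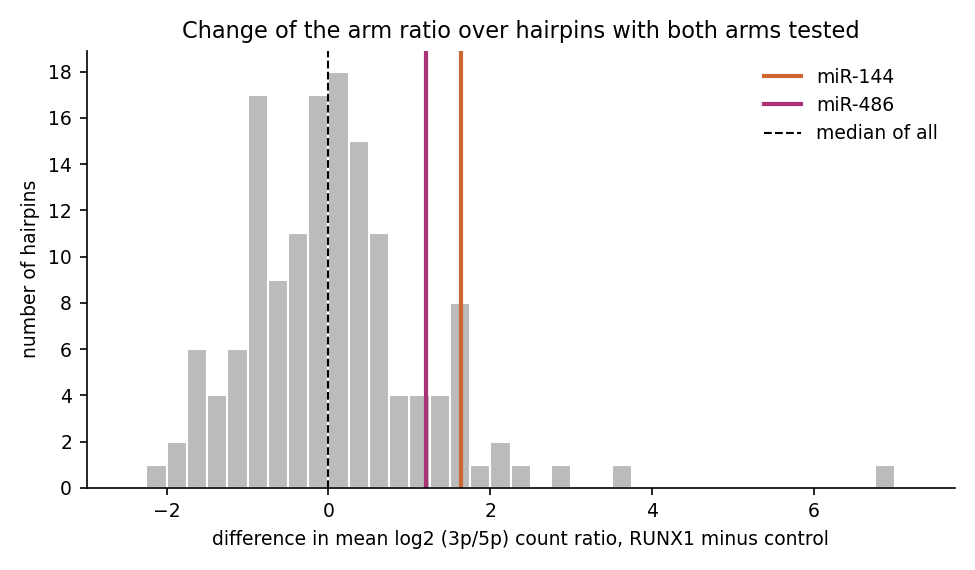
Number of hairpins by the difference of the mean log2 ratio of 3p to 5p counts between RUNX1 and control samples, for the 144 hairpins with both arms tested and paired by name. miR-144 at 1.64 and miR-486 at 1.21 lie on the upper side of a distribution centred near 0 (dashed line, median -0.01).

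The direction called for the members has to be read with the scaling of the libraries. The TMM factors averaged 1.28 in the control samples and 0.786 in the RUNX1 samples, and miR-10a-5p alone took 7.08% to 8.56% of the microRNA counts in the control samples and 27.4% to 32.1% in the RUNX1 samples. Scaling to library size alone shifted the median log2 fold change of all small RNAs by -0.70, and upward calls then made up 18.9% of all calls, against 48.9% with TMM. They were 38.9% with TMM on microRNAs alone and 32.4% with the library size less miR-10a-5p, which shifted the median by -0.19 and -0.33. The log2 fold change of miR-451a was -1.53 with library size alone, -1.02 with TMM on microRNAs and -1.16 without miR-10a-5p. miR-144-5p ranged from -1.25 with library size alone to -0.51 with RLE factors, and miR-486-5p from -1.46 to -0.74. The falls of these 3 arms were called under each of these scalings. The rise of miR-144-3p was 0.83 with TMM on microRNAs and 0.69 without miR-10a-5p, both called, while with library size alone it was not called.

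**Figure D4:**
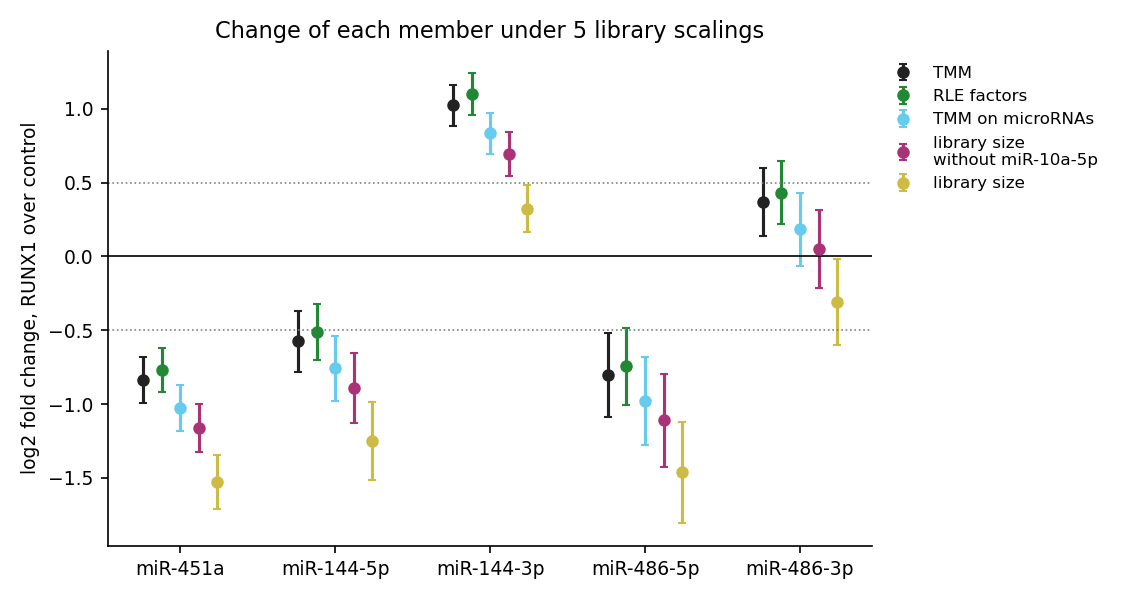
Log2 fold change of the 5 tested members, RUNX1 over control, with SEs, under 5 ways of scaling the libraries, and dotted lines at the fold threshold of 0.5. miR-451a, miR-144-5p and miR-486-5p are below 0 under all 5, miR-144-3p is above 0 under all 5 but at 0.32 and not called with library size alone, and miR-486-3p changes sign with library size alone.

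The whole locus took a smaller part of the microRNA counts in the RUNX1 samples. Its arms made up 0.633%, 0.602% and 0.637% of the microRNA counts in the control samples and 0.168%, 0.203% and 0.292% in the RUNX1 samples, a difference of -0.403 percentage points (exact permutation p = 0.1, two-sided, the smallest possible, n = 3 per group). The miR-486 arms made up 0.127% ± 0.00810 in the control samples and 0.0447% ± 0.0255 in the RUNX1 samples (SD, n = 3 per group; exact permutation p = 0.1). Without miR-10a-5p in the denominator the differences were -0.362 and -0.0740 percentage points. Leaving it out raises the shares of both groups, and more so in the RUNX1 samples. These differences therefore have another base than those above and understate how far the relative fall shrinks. The groups did not overlap for either share, and RUNX1 replicate 3 was the RUNX1 sample nearest to control in both.

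RUNX1 replicate 3 was the RUNX1 sample nearest to the control mean for miR-451a, miR-144-5p and miR-486-5p. On the log2 scale its change from the control mean was 0.665 of the mean change of the other 2 RUNX1 replicates for the most abundant member, miR-451a, while it was 0.141 for miR-144-5p and 0.133 for miR-486-5p. For miR-144-3p the value was 1.09. Over all 517 called small RNAs the median of this fraction was 0.796, and replicate 3 was the nearest of the RUNX1 samples to control in 349 of them (67.5%). The smaller change of replicate 3 was thus widespread, and the fractions of miR-144-5p and miR-486-5p lay well below that median. These values are descriptions, set up after the samples were seen.

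Patterns over the 6 samples were compared on log2 CPM centred on each microRNA's mean, with a small constant added to every CPM. The pattern of miR-451a differed from that of miR-144-5p by a root mean square of 0.200. It differed by 0.267 from that of miR-486-5p and by 0.949 from that of miR-144-3p. Of the 593 tested microRNAs that are no members, the patterns most like miR-451a were those of hsa-miR-548s (0.135), hsa-miR-3177-3p (0.135) and hsa-miR-3128 (0.146). Their log2 fold changes were -0.71, -0.90 and -1.35, against -0.84 for miR-451a. The added constant narrows differences at low levels. miR-3128 had only 0.607 to 2.11 CPM, so its likeness to miR-451a depends on that constant. Those most like miR-144-3p were hsa-miR-4761-3p (0.139), hsa-miR-146b-5p (0.139) and hsa-miR-19a-3p (0.148). miR-146b-5p, an inflammation-linked microRNA, had 39128 to 42223 CPM in the control samples and 71216 to 83172 CPM in the RUNX1 samples.

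Other microRNAs of red cells are described by a list of 12 that are abundant in red cells or rise as they mature. All were tested, and under TMM 6 rose, 1 fell and 5 were not called. Over all 598 tested microRNAs, 31.9% rose and 20.7% fell, so rises outnumbered falls among microRNAs in general. The median log2 fold change was 0.41, against 0.11 over all tested microRNAs and -0.06 over all tested small RNAs. The largest rises were those of miR-363-3p, with 1, 6 and 5 counts in the control samples and 397, 222 and 160 in the RUNX1 samples (log2 fold change 5.50, SE 0.307), and of miR-107 (1.34, SE 0.201). The single fall was that of miR-96-5p (-0.97, SE 0.173). With at least 10 counts required in every sample, miR-363-3p was not tested, 5 of 11 rose, 1 fell, and the median was 0.17. The count depended on the scaling, with 3 rises and 6 falls under library size alone, a median of -0.28 against -0.76 over all small RNAs, and with 4 rises and 2 falls under TMM on microRNAs and without miR-10a-5p.

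A second list held 12 microRNAs that fall in erythroid maturation, act against it or belong to megakaryocytes or myeloid cells. Of these 8 were tested, 7 rose and 1 fell, with a median log2 fold change of 2.59, beside the 31.9% and 20.7% of all tested microRNAs. Some passed the count filter mainly through their RUNX1 counts, and with at least 10 counts in every sample 5 were tested, of which 4 rose and 1 fell. The largest rises were those of miR-221-3p (4.22, SE 0.217), which targets the stem cell factor receptor KIT, and of miR-146a-5p (4.20, SE 0.167). miR-126-3p fell, with a log2 fold change of -1.32 (SE 0.389). Under library size alone 5 rose and 1 fell. The untested members of the list were miR-24-3p, miR-150-5p, miR-125b-5p and miR-130a-3p.

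Haematopoietic microRNAs are described by 6 markers, 3 of which are members. As the list was chosen with earlier results known, their detection is no test of cell identity. All 6 were detected in every sample, and the sum of their levels was 17320 to 19310 CPM in the control samples and 39910 to 56310 CPM in the RUNX1 samples. Most of this sum was miR-142-5p, with 11084 to 12588 CPM in the control samples and 30954 to 43245 CPM in the RUNX1 samples. Under TMM 4 had risen, the member miR-144-3p among them, and 2 had fallen, the members miR-451a and miR-486-5p. Under library size alone 2 had risen and 2 had fallen. Of 13 markers of other tissues, 7 were tested and called higher with RUNX1, against 31.9% of all tested microRNAs. Among them, miR-1, with 0, 1 and 0 counts in the control samples, and miR-205-5p, with 0, 9 and 8, were tested only because of their RUNX1 counts, and with at least 10 counts in every sample 5 were tested and rose. The summed level of the 13 was 178 to 189 CPM in the control samples and 2276 to 2520 CPM in the RUNX1 samples. Most of the level in RUNX1 cells was that of miR-143-3p, a smooth muscle and fibroblast marker, with 42, 152 and 131 counts in the control samples and 23516, 12816 and 12786 in the RUNX1 samples. The markers miR-124-3p of nerve cells and miR-206 of striated muscle were at 0 in all samples. Arms with several gene copies, such as miR-124-3p, may be undercounted, so its 0 does not show absence. Under library size alone 4 of the 7 rose and none fell. Whether the rise of these markers has a part in the changes of the erythroid arms was not tested.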

How the data were processed

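The authors prepared TruSeq small RNA libraries from 1000 ng of total RNA, sequenced them on a HiSeq2000 and counted reads per annotated small RNA. The deposited values are raw counts without normalization. The submitters' processing notes name CASAVA 1.8.2 and hg19, and the methods name OASIS with standard settings. The handling of reads that match several places is not given in the sources used here. Arms with several gene copies may therefore be undercounted, which was not tested. In the control samples miR-24-3p had 0, 1 and 1 counts, while miR-24-2-5p, the other arm of a miR-24 hairpin, had 61, 204 and 164. The levels of miR-101-3p, miR-16-5p and miR-124-3p, which also have several gene copies, carry the same limit. Groups and replicate numbers came from the sample titles, although the library name of RUNX1 replicate 1 carries another number.

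The 8 members and all lists were chosen with earlier results of these data known. All entries were fitted in R 4.3.3 with edgeR 4.0.16: filterByExpr (minimum count 10, minimum total 15), TMM, and the quasi-likelihood test with group as the only term. Standard errors (SE) were derived from each fold change and its F statistic. The fits were tested on simulated data. Ratios used a pseudocount of 0.5, and ratios and shares were compared by exact permutation (Python 3.11.15, scipy 1.17.1). Other choices were DESeq2 1.42.0, RLE factors, library size, TMM on microRNAs, other count filters, an unadjusted p, the replicate block and each library left out. Besides the members, the rule named seed partners, the 3 closest patterns, the 2 largest rises and falls among the called ones of the red cell list and of the list opposed to it, and miR-10a-5p for its share of the counts. miR-101-3p, the untested list members and the single markers of other tissues were named after their values were seen.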

Additional observations from a re-analysis of the deposited data

How the results depend on the processing

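The fall of miR-451a and the rise of miR-144-3p kept their direction under all 14 alternatives, and miR-451a also kept its call, while miR-144-3p lost it under library size alone (0.32). miR-144-5p was not called without a count filter (-0.49), and miR-486-3p changed sign under library size alone (-0.31). With 1 library left out, the log2 fold change was -0.89 to -0.68 for miR-451a, -0.78 to -0.40 for miR-144-5p, 0.97 to 1.14 for miR-144-3p, -1.18 to -0.57 for miR-486-5p and 0.16 to 0.57 for miR-486-3p. The number of members called was then 2 to 4, and it was 4 without RUNX1 replicate 3 and 2 without any of the other 5. All small RNAs called were 458 to 604 with a library left out. The log2 difference of the ratio of miR-451a to miR-486-5p, small throughout, ran from -0.12 to 0.31 and turned negative without RUNX1 replicate 1 (-0.04) or 2 (-0.12). The difference of the ratio of miR-451a to miR-144-5p, -0.23, ran from -0.34 without RUNX1 replicate 2 to -0.09 without RUNX1 replicate 3. Those of the other 3 ratios moved by less than the spread between replicates. The share of the locus fell by 0.310 percentage points with all small RNA counts as the denominator. Deviations of samples with the same replicate number had correlations of -0.0359, -0.0954 and 0.0137, against -0.0374 to 0.0931 for different numbers. With 3 samples per group these values show no pairing but cannot exclude it. With the replicate block, 506 small RNAs and 4 members were called, and miR-451a stood at -0.85 on the log2 scale, with 1.03 for miR-144-3p, -0.62 for miR-144-5p, -0.90 for miR-486-5p and 0.32 for miR-486-3p. The block lowered the adjusted p (edgeR) of miR-144-5p from 0.0394 to 0.0262 and of miR-486-5p from 0.0355 to 0.00904. It raised those of miR-451a (0.00191), miR-144-3p (0.00106) and miR-486-3p (0.266). The shallowest library, control replicate 1, sets the detection limit of miR-4732 and miR-451b.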
